A study of Mus musculus with 4 samples.

Results

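Cholesterol synthesis, uptake and export were followed through 32 genes, of 27670 named on the arrays. They were taken as every probe whose name in the scanner files, or whose current symbol by RefSeq accession, was one of the 32. All 32 had at least 1 probe, 63 probes in all, with several probes for 20 genes and 1 probe for 12. The series measured male C57BL/6J mice, 7 weeks old, fed 1 of 2 diets for 4 weeks. Control mice ate a purified diet with 0.03% nucleic acids, and for the other group 1.2% of a nucleoprotein product raised the nucleic acids to 0.5%. Both groups were injected with lipopolysaccharide, an endotoxin from bacterial walls that provokes inflammation throughout the body, at 10 mg/kg, and liver and spleen were removed after 6 h. Each diet's RNA was pooled, so an array compared the pool of the nucleoprotein diet with the pool of the control diet in 1 organ.

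The 4 arrays were 2-colour and lay on 1 slide, 2 for liver and 2 for spleen, each carrying both pools in opposite dyes. The nucleoprotein pool carried Cy5 on replicate 1 of either organ and Cy3 on replicate 2. The labels do not say whether the numbered samples were separate pools, so the arrays of an organ were taken as a dye swap of 1 pool per diet. The SD beside a value is therefore that of 2 arrays, covers labelling and array error only, and no test between diets was possible. The number of mice in a pool is not given in the sources used here, and no mice without lipopolysaccharide were analysed here. The housing notes name the chow CE-2, so the nucleic acid content of the control diet rests on the design text. Ratios are log2 of nucleoprotein over control, and a gene with several probes is given by its brightest. A gene counted as measurable in an organ when at least 1 diet's pool gave a signal well above background with that probe on each of the organ's arrays. In a pooled organ, fewer cells of a type and less RNA per cell cannot be told apart.

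Cholesterol is built from acetyl-CoA in the cytosol and endoplasmic reticulum, first along the mevalonate pathway to farnesyl diphosphate and then from squalene through lanosterol to cholesterol. When membrane sterol is low, the escort protein SCAP carries the transcription factor SREBP to the Golgi, where it is cut free and turns on the synthesis genes, while INSIG proteins hold SCAP back when sterol is high. Liver is the main organ that makes, takes up and secretes cholesterol. Surplus sterol is esterified by SOAT enzymes or exported by ABC transporters, which are targets of the sterol-sensing nuclear receptor LXR.

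Known control elements of synthesis genes lie close to their start sites, so the promoters of members that stood out in liver are shown before the values. Elements further from a start were not searched for. RefSeq windows on GRCm38.p6, from 250 bases before to 50 after a start, were matched for 23 of the 32 members, 30 windows in all. Hmgcs1, Pmvk, Mvd and Dhcr7 had the low liver ratios given below, and Ebp, a synthesis gene with a ratio near 0 in liver, is shown for contrast. Capitals mark matches to the sterol regulatory element TCACNCCAC or its core CACCCCAC, bound by SREBP, and to the inverted CCAAT box ATTGG, bound by NF-Y, on either strand. Where a gene had several starts (Pmvk, Dhcr7), the window that holds a match is shown.
Hmgcs1 (chr13:119690101-119690400, plus strand): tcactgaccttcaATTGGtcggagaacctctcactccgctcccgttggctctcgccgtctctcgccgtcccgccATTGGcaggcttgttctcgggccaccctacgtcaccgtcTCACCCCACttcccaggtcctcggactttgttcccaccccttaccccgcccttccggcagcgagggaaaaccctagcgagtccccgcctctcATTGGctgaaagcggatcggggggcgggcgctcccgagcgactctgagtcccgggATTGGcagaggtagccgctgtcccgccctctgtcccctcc
Pmvk (chr3:89454291-89454590, plus strand): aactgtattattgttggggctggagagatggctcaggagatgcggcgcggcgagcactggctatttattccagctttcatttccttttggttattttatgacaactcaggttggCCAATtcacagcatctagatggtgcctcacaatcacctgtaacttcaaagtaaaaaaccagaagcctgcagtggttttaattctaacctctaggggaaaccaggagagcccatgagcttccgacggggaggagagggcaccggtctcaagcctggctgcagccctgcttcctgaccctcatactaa
Mvd (chr8:122443373-122443672, minus strand): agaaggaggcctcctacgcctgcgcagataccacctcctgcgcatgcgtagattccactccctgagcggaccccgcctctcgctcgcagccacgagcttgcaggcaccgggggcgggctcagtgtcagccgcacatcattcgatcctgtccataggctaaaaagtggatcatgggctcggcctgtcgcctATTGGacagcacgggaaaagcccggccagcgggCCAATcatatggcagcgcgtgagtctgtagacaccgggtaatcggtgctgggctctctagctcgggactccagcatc
Dhcr7 (chr7:143829964-143830263, plus strand): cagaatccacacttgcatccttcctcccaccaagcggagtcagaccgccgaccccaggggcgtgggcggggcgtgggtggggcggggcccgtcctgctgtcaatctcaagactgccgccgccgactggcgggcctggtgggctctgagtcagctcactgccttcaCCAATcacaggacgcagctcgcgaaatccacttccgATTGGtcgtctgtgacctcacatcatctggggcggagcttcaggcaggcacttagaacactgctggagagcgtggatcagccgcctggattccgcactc
Ebp (chrX:8193463-8193762, minus strand): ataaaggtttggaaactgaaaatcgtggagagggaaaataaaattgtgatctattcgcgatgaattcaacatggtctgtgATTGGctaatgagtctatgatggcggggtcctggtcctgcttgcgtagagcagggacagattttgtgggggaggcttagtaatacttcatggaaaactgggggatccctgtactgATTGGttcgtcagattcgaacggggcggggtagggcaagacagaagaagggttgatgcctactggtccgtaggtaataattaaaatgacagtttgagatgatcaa

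The sterol element TCACNCCAC was found in the Hmgcs1 window, at position -137 from the start, and in no other of the 15 synthesis genes that had a window. It was present in 1.44% of all 27025 genes with a window, and in 1.24% of all 32851 windows. The core CACCCCAC was found in 2 of the 15, Acat2 and Hmgcs1, where it lies inside the longer element, against 3.30% of all genes with a window. The inverted CCAAT box was found in 14 of the 15 synthesis genes, all but Acat2, counting a gene when any of its windows held it. Of all genes with a window, 41.1% held it. Ebp, whose liver ratio was near 0, held 2 matches, as did Mvd and Dhcr7. The letters GGTCA and again GGTCA after 4 bases of any kind were in no member's window and in 0.0457% of all windows. That pattern does not have the spacing of the LXR element, so LXR sites were not searched for. These matches describe letters in the windows, and a window without one says nothing about binding.

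In liver, the genes of cholesterol synthesis were lower with the nucleoprotein diet than the genes measured around them. The median ratio of the 17 measurable synthesis genes was -0.31, with array medians of -0.21 and -0.28, while the median of all 16405 measurable liver genes was 0.01. All 17 had a mean ratio below 0, against 41.6% of all genes. Of the 17, 12 were below 0 on both arrays, 70.6%, against 13.6% of all genes. The mean ratios of 14 of them lay between -0.46 and -0.21, and those of Acat2, Ebp and Tm7sf2 between -0.04 and -0.00. This direction is relative to all genes. When arrays were centred on their median without the intensity-dependent loess, all liver genes had a median of 0.17 and synthesis genes -0.01, a difference of -0.18, and 14 of the 17 lay below the median of all genes. With that centring and brighter probes alone, chosen after seeing the data, the synthesis median turned to 0.04 with all genes at 0.30. Under median centring no synthesis gene was below 0 on both arrays, and the share of all genes that were was 2.75%. With the median of all genes then subtracted, still none of the 17 was below 0 on both arrays, against 14.6% of all genes. That step took the same value from both arrays, so any dye effect that changes with intensity stayed in, with opposite signs on the arrays. The count of 12 thus rests on the loess, also relative to all genes. In the same liver pools 14 of 14 pancreatic acinar markers were lower past 1.5-fold with the nucleoprotein diet, where 0.317% of all genes were, with a median of -3.95. The part of that difference in the cholesterol values was not tested.

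**Figure D1:**
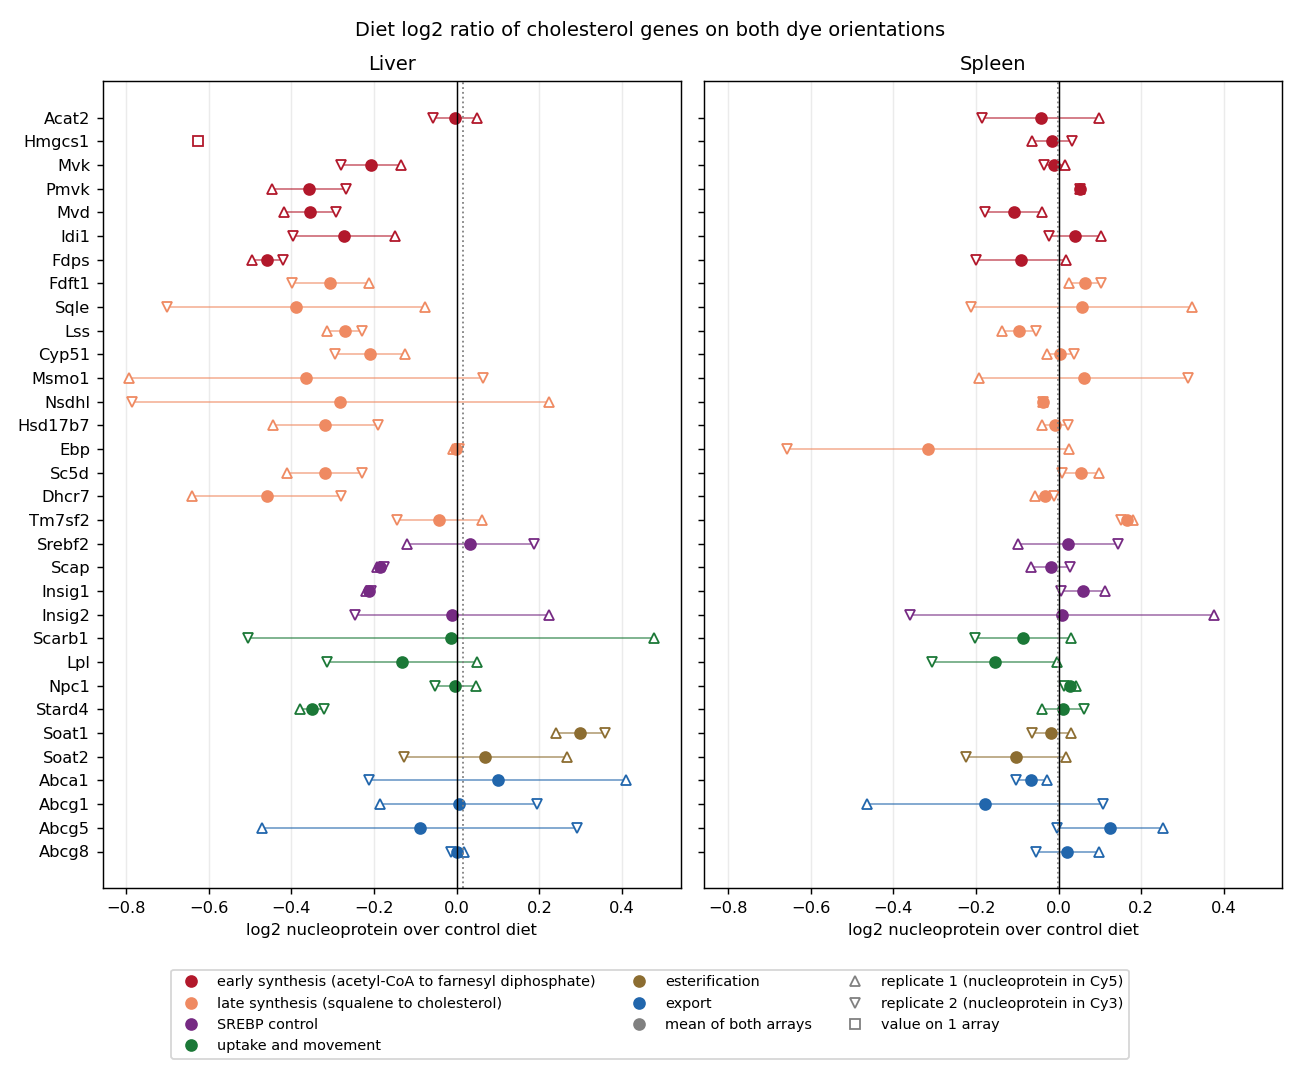
Each row is 1 gene in pathway order, with its log2 ratio of nucleoprotein over control diet on replicate 1 (up triangle), replicate 2 (down triangle) and their mean (dot), in liver on the left and spleen on the right, and the dotted line marks the median of all genes. In liver 14 synthesis genes have means between -0.46 and -0.21 after loess normalization (under median centring their group had a median of -0.01 with all genes at 0.17), and in spleen the synthesis genes lie around 0.

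The differences were small. No member passed 1.5-fold (0.58 in log2) in the same direction on both liver arrays, against 0.329% of all genes, 0.0122% being higher. At 1.2-fold (0.26 in log2), 5 of the 31 measurable members were lower on both arrays, Pmvk, Mvd, Fdps, Dhcr7 and Stard4, or 16.1%, against 0.799% of all genes. The count was 0 under median centring, where 0.226% of all genes were lower past the bound. It was 2 with the mean over all probes of a gene, against 0.703%, and 4 with a smaller background offset, against 0.927%. It was 6 with the deposited log ratios and 6 with the authors' value table, against 2.12% and 2.17% of all genes. The scaling and the choice of probe thus decide these calls. In the main processing no member was higher past 1.2-fold, against 0.183%, so that 0.981% of all genes passed it in either direction. Cy5 was the brighter dye on both arrays for 10 of the 31, where it was for 37.9% of all genes. On single arrays 10 members were lower past 1.2-fold on replicate 1 and 13 on replicate 2, where 4.79% and 12.0% of all genes were. Nearest to the bound on the inside was Pmvk, whose smaller array ratio was -0.27, and nearest on the outside on the lower side were Sc5d and Lss, each at -0.23 on replicate 2. On the higher side Soat1, at 0.24 on replicate 1, was nearest.

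The early pathway, from acetyl-CoA to farnesyl diphosphate, was represented by 7 genes, of which 6 were measurable on both liver arrays. Of those, 5 were below 0 on both, 83.3%, against 13.6% of all genes. Fdps, farnesyl diphosphate synthase at the branch point to squalene, had liver ratios of -0.50 and -0.42, a mean of -0.46 ± 0.05 (SD, n = 2 arrays), or 72.8% of the control level. Both liver arrays lay below both spleen arrays, which gave 0.02 and -0.20 (-0.09 ± 0.15). Its second, dimmer probe read 0.03 and -0.69 in liver, so the arrays differed there. Pmvk, phosphomevalonate kinase, had liver ratios of -0.45 and -0.27 (-0.36 ± 0.13), and 0.05 on both spleen arrays (0.05 ± 0.00). Its second probe, nearly as bright, read -0.42 and -0.18 in liver, so it did not pass 1.2-fold on both arrays. In spleen that probe read -0.09 and -0.01. Mvd, the decarboxylase that makes isopentenyl diphosphate, had -0.42 and -0.29 in liver (-0.35 ± 0.09) and -0.04 and -0.18 in spleen (-0.11 ± 0.10). The liver and spleen ratios of Pmvk and Mvd did not overlap. The share of all genes whose organs did not overlap was not counted, so this and the like statements below describe single genes only.

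Idi1, isopentenyl diphosphate isomerase, had liver ratios of -0.15 and -0.40 (-0.27 ± 0.17) with its brightest probe, which the array design places on another chromosome than the gene. Its second probe gave -0.12 and -0.51. Mvk, mevalonate kinase, had -0.13 and -0.28 (-0.21 ± 0.10). Acat2, the cytosolic thiolase that starts the pathway, was nearest to 0 of the early genes, with 0.05 and -0.06 (-0.01 ± 0.08).

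Hmgcs1, the HMG-CoA synthase whose promoter holds the sterol element, had a liver ratio of -0.63 on replicate 1 only, since the scanner software marked its brightest spot on replicate 2 as an outlier. It is therefore outside the counts above. With outlier spots kept, a choice made after seeing the data, that spot gave -0.74, the mean was -0.68, and Hmgcs1 was then the only member lower past 1.5-fold on both liver arrays. Its 2 dimmer probes gave 0.01 and -0.33, and -0.10 and -0.34, so they were less low than the bright one. In spleen the bright probe gave -0.06 and 0.03 (-0.02 ± 0.07). The array design places that probe on an unassigned sequence.

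The late pathway, from squalene synthase to cholesterol, had 11 genes, all measurable in liver, with a median ratio of -0.31. Of these, 7 were below 0 on both arrays, 63.6%, against 13.6% of all genes. Dhcr7, the reductase of the last step of one branch, had the lowest mean of the 31 measurable members in liver, with -0.64 and -0.28 (-0.46 ± 0.25), or 72.7% of control. In spleen it read -0.06 and -0.01 (-0.03 ± 0.03), and the ratios of the organs did not overlap. Its second probe also was below 0 on both liver arrays, at -0.03 and -0.60, but overlapped with spleen, at -0.12 and 0.07. Fdft1, squalene synthase, had -0.21 and -0.40 (-0.31 ± 0.13), Lss, which closes the ring to lanosterol, -0.31 and -0.23 (-0.27 ± 0.06), and Cyp51, which demethylates lanosterol, -0.13 and -0.29 (-0.21 ± 0.12). Hsd17b7, a keto-sterol reductase, had -0.44 and -0.19 (-0.32 ± 0.18), and Sc5d, a sterol desaturase, -0.41 and -0.23 (-0.32 ± 0.13). Dimmer probes differed more between arrays, with 0.21 and -0.58 for Sc5d, 0.13 and -0.07 and -0.15 and -0.45 for Lss, and 0.25 and -0.50 and -0.03 and -0.29 for Cyp51.

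Sqle, Msmo1 and Nsdhl had low means that rested mostly on 1 array. Sqle, squalene epoxidase and a rate-controlling enzyme, read -0.08 and -0.70 (-0.39 ± 0.44). Msmo1 and Nsdhl, which act in demethylating the sterol ring, read -0.79 and 0.06 (-0.36 ± 0.61) and 0.22 and -0.79 (-0.28 ± 0.71). Of the 3 other Nsdhl probes, those reading 0.28 and -0.77, and 0.41 and -0.97, gave the same split between arrays, and the dimmest read 0.06 and 0.01. For these genes the arrays differed by more than the mean. Ebp, the sterol isomerase, was nearest to 0 of the late genes, with -0.01 and 0.01 (-0.00 ± 0.01), and Tm7sf2, a sterol reductase, had 0.06 and -0.14 (-0.04 ± 0.14).

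Counted by probe, 20 of 33 measurable synthesis probes in liver were below 0 on both arrays, 60.6%, against 13.9% of all measurable probes. In spleen 8 of 34 were, 23.5%, against 19.5%. Probes of 1 gene share that gene and are not independent.

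**Figure D2:**
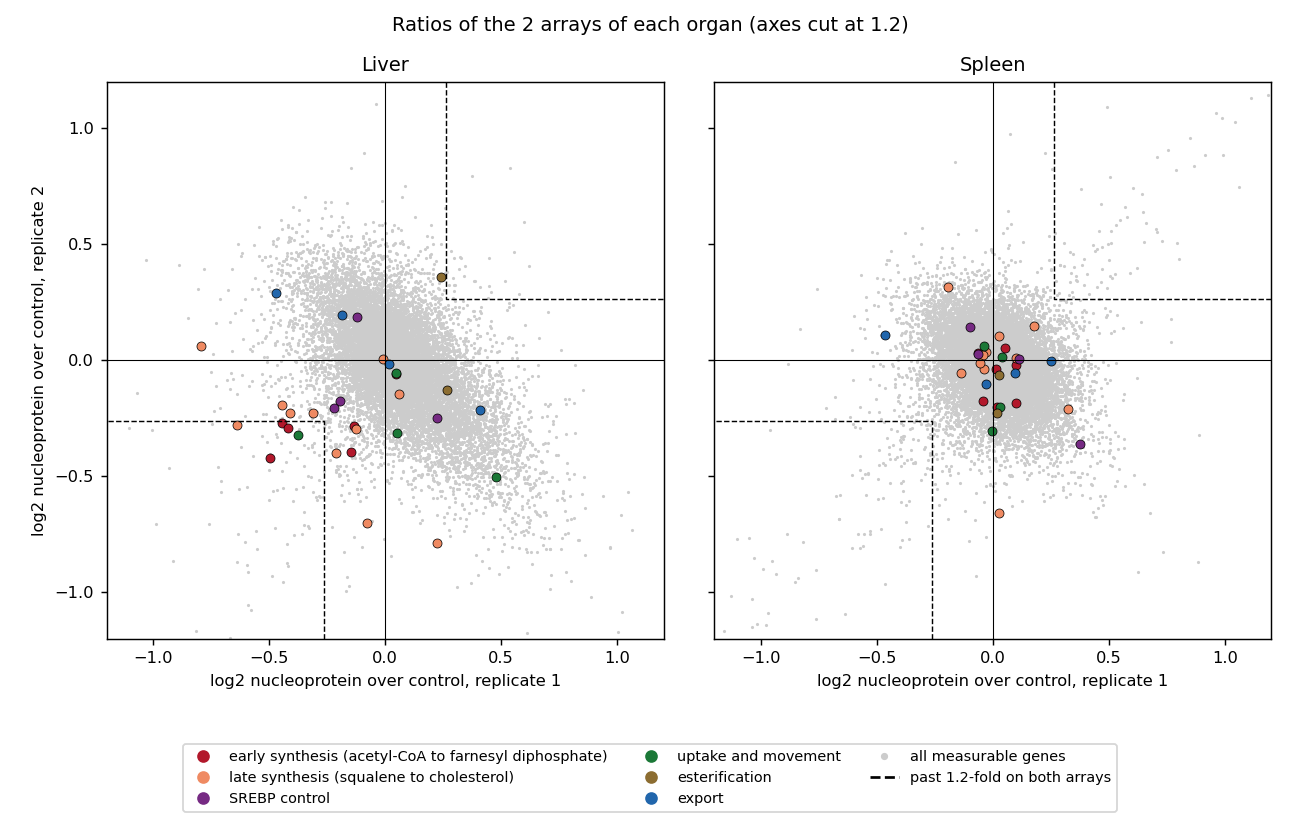
Each dot is 1 measurable gene, with its log2 ratio of nucleoprotein over control on replicate 1 (horizontal axis) and replicate 2 (vertical axis), all genes in grey and members coloured by role, and dashed lines mark 1.2-fold on both arrays. In liver 4 synthesis genes and Stard4 lie inside the lower left dashed corner after loess normalization (none under median centring), and in spleen no member lies in either dashed corner.

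The genes of sterol sensing had smaller liver ratios. Srebf2, which encodes the SREBP form that drives cholesterol synthesis, read -0.12 and 0.19 in liver (0.03 ± 0.22), so its mean was within the spread of its arrays. Scap, the escort, had -0.19 and -0.18 (-0.19 ± 0.01), or 88.0% of control. Insig1, a sterol-responsive brake on SCAP and a textbook SREBP target, had -0.22 and -0.21 (-0.21 ± 0.01). Both arrays gave Scap and this Insig1 probe nearly the same value, and both liver arrays lay below both spleen arrays, which gave -0.07 and 0.03 for Scap and 0.11 and 0.01 for Insig1. The second Insig1 probe read -0.09 and -0.42 in liver and 0.11 and -0.17 in spleen, so its arrays differed and the organs overlapped. Insig2 read 0.22 and -0.25 (-0.01 ± 0.33), on opposite sides of 0.

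Of the 4 genes of uptake and intracellular movement, only Stard4 was below 0 on both liver arrays, where 13.6% of all genes were. Stard4, a soluble sterol carrier, had -0.38 and -0.32 (-0.35 ± 0.04), or 78.4% of control, with -0.04 and 0.06 in spleen (0.01 ± 0.07), so the organs did not overlap with this probe. Its 2 dimmer probes read 0.00 and -0.11, and -0.18 and -0.13, in liver, and the mean over all its probes was -0.19, which does not pass 1.2-fold. Scarb1, the receptor that takes up HDL cholesterol, was on opposite sides of 0, with 0.48 and -0.50 (-0.01 ± 0.70), the widest spread between liver arrays of these 4 genes. Npc1, which exports cholesterol from lysosomes, was near 0 on both arrays, with 0.05 and -0.05 (-0.00 ± 0.07). Lpl, lipoprotein lipase, had 0.05 and -0.31 in liver (-0.13 ± 0.26) and -0.00 and -0.30 in spleen (-0.15 ± 0.21), with the lower value in both organs on replicate 2.

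Soat1, which esterifies cholesterol for storage, was the only member above 0 on both liver arrays, where 20.5% of all genes were. It read 0.24 and 0.36 (0.30 ± 0.08), or 123% of control, and 0.03 and -0.06 in spleen (-0.02 ± 0.07). The array design places that probe on another chromosome than the gene. The 2 other Soat1 probes measurable in liver gave -0.07 and 0.29, and 0.03 and 0.04. Soat2, the form of hepatocytes and intestine, had 0.27 and -0.13 (0.07 ± 0.28).

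The LXR export genes showed no common direction in liver. Their median was 0.00, with array medians of -0.08 and 0.09, and none of the 4 was on one side of 0 on both arrays. Of all genes, 13.6% were below 0 on both arrays and 20.5% above, so arrays on opposite sides were usual. Abca1, which loads cholesterol onto apolipoprotein A-I, had 0.41 and -0.21 (0.10 ± 0.44). Abcg1, which exports to HDL, had -0.18 and 0.20 (0.01 ± 0.27). Abcg5 and Abcg8, partners in the transporter that moves sterols into bile, read -0.47 and 0.29 (-0.09 ± 0.54) and 0.02 and -0.01 (0.00 ± 0.02). The Abcg8 probe was dim, at log2 levels of 7.05 in liver and 6.37 in spleen in the control pools. The offset used in background correction pulls ratios of dim probes toward 0, so this narrow spread is no measure of precision. With the deposited log ratios its mean was -0.01 in liver, and in spleen 0.20 in place of 0.02. The 10 genes of SREBP control, uptake and esterification had a liver median of -0.01, with 3 below 0 on both arrays. Medians of all 3 groups moved up under median centring, to -0.01 for synthesis, 0.24 for control, uptake and esterification and 0.23 for export, with all genes at 0.17, and synthesis remained the lowest.

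**Figure D3:**
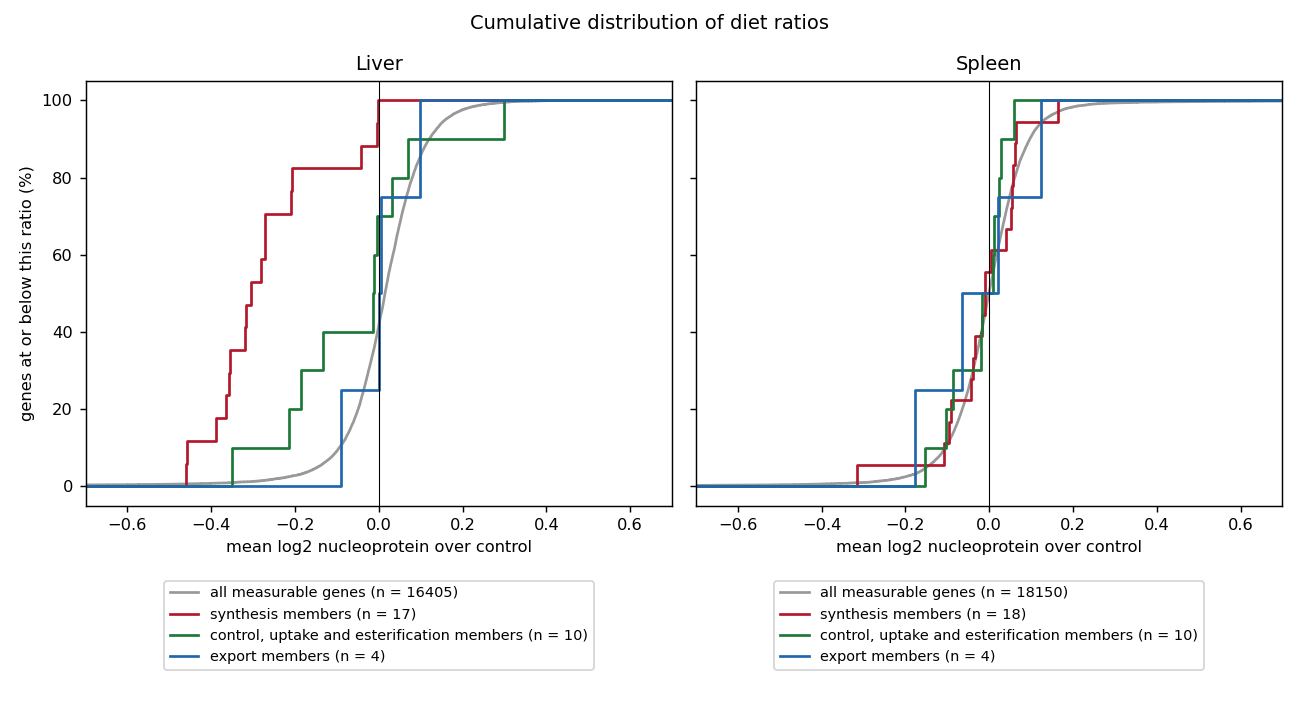
Each line gives the percentage of genes whose mean log2 ratio of nucleoprotein over control (mean of 2 arrays) is at or below the value on the horizontal axis, for all measurable genes and 3 groups of members. In liver the synthesis line has its median at -0.31 and all genes at 0.01 after loess normalization (-0.01 and 0.17 under median centring), and in spleen the synthesis line follows that of all genes.

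In spleen the synthesis genes lay around 0. The 18 synthesis genes had a median of -0.01, with array medians of 0.02 and -0.02, against -0.00 for all 18150 measurable genes. Of the 18, 4 were below 0 on both arrays and 4 above, where 19.9% and 20.4% of all genes were. The mean was below 0 for 10 of the 18, against 50.2% of all genes. No member passed 1.2-fold on both arrays, against 0.733% of genes lower, 0.529% higher and 1.26% either way, or 1.5-fold, against 0.441% in either direction. Tm7sf2 had the highest mean, with 0.18 and 0.15 (0.16 ± 0.02), above 0 on both arrays. Ebp had the lowest, with 0.03 and -0.66 (-0.32 ± 0.48), which rested on replicate 2 alone. The export genes had a spleen median of -0.02, and Abcg1 read -0.46 and 0.11 (-0.18 ± 0.41), on opposite sides of 0.

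The organs were then compared within each dye orientation, where a dye effect common to both organs cancels. The median liver minus spleen difference of the 17 synthesis genes was -0.31, with -0.25 in either orientation, against 0.02 for all 15316 genes measurable in both organs. The difference was below 0 in both orientations for 14 of the 17, against 18.8% of all genes, and above 0 in both for none, against 24.3%. The 3 exceptions were Acat2, Nsdhl and Ebp. Past 1.2-fold in both orientations were 4 members, all lower in liver, against 1.34% of all genes, and none was higher, against 0.731%. These were Dhcr7 (-0.58 and -0.27), Pmvk (-0.50 and -0.32), Sqle (-0.40 and -0.49) and Stard4 (-0.34 and -0.38). No member passed 1.5-fold in both orientations, against 0.594% of genes. The SD of Sqle was 0.44 in liver alone and 0.06 in the difference, and its replicate 2 ratio was the lower one in both organs. Pmvk, Fdft1, Sc5d and Insig1 had both liver arrays below 0 and both spleen arrays above, and 6.56% of all genes had their organs on opposite sides in this way. Both esterification genes differed the other way, Soat1 by 0.21 and 0.42 and Soat2 by 0.25 and 0.10. The export genes had a median difference of 0.07. Under median centring the synthesis difference had a median of -0.01, or -0.17 once the median of all genes in each organ was subtracted.

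**Figure D4:**
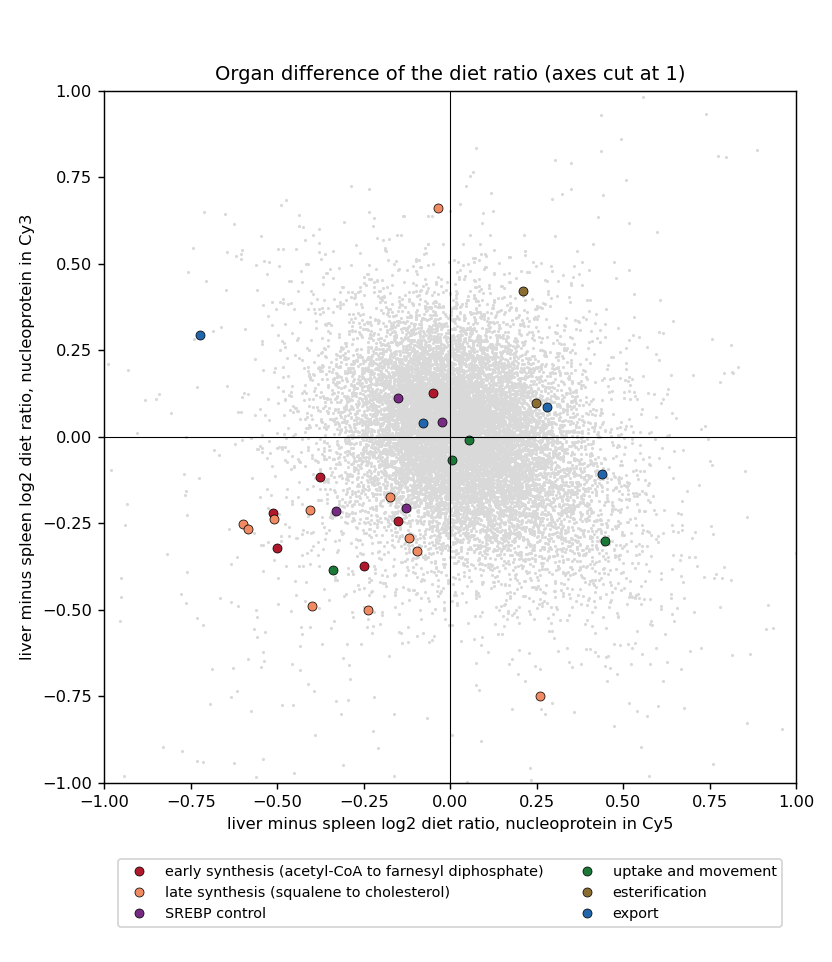
Each dot is 1 gene measurable in both organs, with the liver ratio minus the spleen ratio (log2) with the nucleoprotein pool in Cy5 on the horizontal axis and in Cy3 on the vertical axis, all genes in grey. After loess normalization 14 of 17 synthesis genes lie below 0 on both axes and both esterification genes above 0 (the synthesis median was -0.31, and -0.01 under median centring).

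Most of these genes were brighter in liver than in spleen. Single-channel levels, on a log2 intensity scale and compared for each probe with itself, were over 2-fold brighter in liver in the pools of both diets for 24 of 32 members, against 14.0% of 19239 genes. Late synthesis was liver-bright throughout, at 11 of 11 genes. Over 8-fold brighter in liver in both diets were 7 members, against 4.23% of genes, and none was over 8-fold brighter in spleen, against 2.33%. Among these, Tm7sf2 was 77.7-fold, Abcg5 70.7-fold, Acat2 54.9-fold, Fdps 11.7-fold and Sc5d 11.6-fold brighter in the control pools. Abcg5 in the control spleen pool was well above background on 1 of 2 arrays, so its fold is imprecise. Abcg1, the exporter of macrophages and other peripheral cells, was 6.39-fold brighter in spleen in the control pools and 5.63-fold in the nucleoprotein pools, and Srebf2 2.05-fold and 2.04-fold, where 19.0% of genes were spleen-bright by that bound. Scap differed between organs by 1.01-fold in the control pools and 1.11-fold in the nucleoprotein pools.

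**Figure D5:**
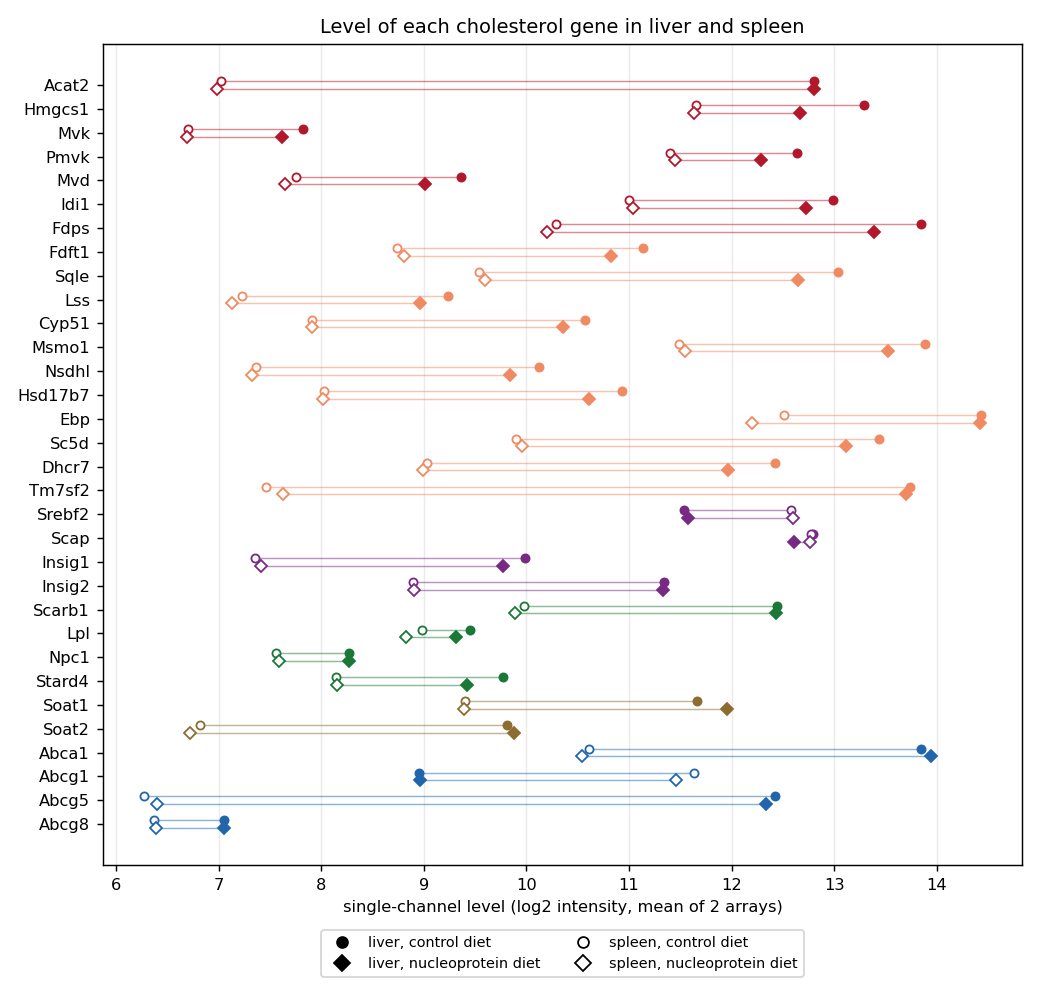
Single-channel level of each gene (log2 intensity, mean of 2 arrays) in liver (filled) and spleen (open), for the control pools (circles) and the nucleoprotein pools (diamonds); only values of the same gene can be compared. Abcg1 and Srebf2 are the genes brighter in spleen past 2-fold, and 24 of 32 genes are brighter in liver past 2-fold in both diets.

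Other genes of the pathway, 33 in a list that does not include the members, had a liver median of 0.01. Of the 32 measurable in liver, 8 were below 0 on both arrays, a higher share than the 13.6% of all genes, and none passed 1.2-fold, against 0.981% in either direction. The 5 neighbours of synthesis had a lower median, -0.18, and 3 of the 5 were below 0 on both arrays, with Cyb5r3, an electron donor of the late pathway, at -0.40 and -0.19. Srebf1, which encodes the SREBP form tied to fatty acid synthesis, had the lowest mean, with -0.37 and -0.25 (-0.31 ± 0.09), and Nceh1, which hydrolyses cholesterol esters, the highest, with 0.15 and 0.47 (0.31 ± 0.23). The LXR gene Nr1h3 read -0.12 and -0.16 in liver and -0.24 and -0.30 in spleen. These 4 genes were picked after their values were seen. In spleen 1 of 30 passed 1.2-fold, Apoa1, the main HDL protein made by liver, at 0.46 and 0.56 (0.51 ± 0.07), where 0.529% of all genes were higher past that bound. Its log2 level in the control spleen pool was 6.27, well above background on 1 of 2 arrays, so its ratio is imprecise. In the control pools it was 579-fold brighter in liver than in spleen.

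Acinar markers differed between the diets in both organs, and hepatocyte markers in spleen. Macrophage, B cell and T cell markers had medians of 0.061, -0.033 and 0.018 in liver and 0.004, -0.045 and -0.093 in spleen. In spleen 5 of 8 T cell markers were below 0 on both arrays and 0 above. Of the 7 B cell markers with a value on both spleen arrays, 4 were below and 1 above, and of 8 macrophage markers 2 were below and 2 above. Of all spleen genes, 19.9% were below 0 on both arrays and 20.4% above. The acinar markers in liver ranged from -6.16 to -0.69, and the log2 of their summed level was 16.70 and 16.71 in the control pool against 12.61 and 12.48 in the nucleoprotein pool. The 14 hepatocyte markers, all well above background in liver, had a median of 0.01, with array medians of 0.43 and -0.40, so they showed a dye split and no common direction. Neutrophil markers had a liver median of 0.13, with 7 of 9 above 0 on both arrays, against 20.5% of all genes. In spleen their median was 0.16, with 7 of 10 above 0 on both arrays, against 20.4%. In spleen, 13 of 13 measurable hepatocyte markers were above 0 on both arrays, against 20.4% of all genes, with a median of 1.17. The log2 of their summed level was 11.10 and 11.14 in the control pool and 12.52 and 12.49 in the nucleoprotein pool. Acinar markers in spleen had a median of -1.07, with 11 of 14 lower past 1.5-fold, against 0.226% of all genes. All 8 B cell markers were well above background in spleen, as the label requires, while of 6 markers of fat Adipoq, Plin1, Lep and Retn were not measurable in liver. The others were. Cfd was lower past 1.2-fold on both liver arrays, at -0.29 and -0.30, and Cidec read -0.26 and 0.17. The part of these cells in the cholesterol values was not tested. Without the members over 8-fold brighter in liver, the liver synthesis median was -0.29.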

How the data were processed

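The submitters' processing notes name Agilent Feature Extraction 9.5.3.1 as the scanner software. Per the file headers, the deposited intensity values are mean spot and local background brightness in both channels, and the deposited log10 values are ratios of red over green after background subtraction and dye normalization. The series value table deposited by the authors held the linear ratio of red over green, to within 0.02 log2 for at least 99.74% of well-measured spots, with a minus sign on replicate 1 arrays whose purpose is unknown. Its column medians were -0.92, 0.92, -0.96 and 0.96. Deposited intensities were background-corrected (normexp, offset 50) and loess-normalized within each array in limma 3.58.1 (R 4.3.3), with outlier spots left out. Ratios were turned to log2 nucleoprotein over control.

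Of 41174 probes, 22944 were named by accession, 9772 by symbol or synonym and 8458 by the name in the file. In each channel of each array, 55.2% of gene spots or more stood well above background. The number of arrays limits the precision. Over all genes the ranks of the ratios ran opposite ways on the arrays of an organ (Spearman -0.483 in liver and -0.248 in spleen, Pearson 0.101 and 0.060, across genes, which are not independent), so both orientations are given. Levels were also Aquantile-normalized between arrays. A call needs a fold past 1.5 or 1.2 on both arrays of an organ in one direction, with no test. All 32 members are named, with both array values for those past a bound, nearest to 0 or furthest from the others in their role. Other pathway genes are named when past 1.2-fold, and a few others after their values were seen. The members and lists were chosen with earlier results of these data known. The normalization was tested on simulated data.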

Additional observations from a re-analysis of the deposited data

Results flagged for a closer look

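Pmvk, Fdft1, Sc5d and Insig1 were below 0 on both liver arrays and above 0 on both spleen arrays. Mean log2 ratios of nucleoprotein over control in liver and spleen were -0.358 and 0.052 for Pmvk, -0.306 and 0.065 for Fdft1, -0.319 and 0.054 for Sc5d, and -0.213 and 0.059 for Insig1. With their second probes, Pmvk read -0.09 and -0.01 in spleen, Sc5d 0.21 and -0.58 in liver, and Insig1 0.11 and -0.17 in spleen, so the opposite sides did not hold there. Among the other pathway genes, Msr1, a macrophage scavenger receptor, was the reverse, with 0.096 in liver and -0.028 in spleen. Such opposite sides were seen in 6.56% of the 15316 genes measurable in both organs. The difference between organs was not tested for any of these genes, since the arrays of each organ were taken as 1 pool per diet.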

How the results depend on the processing

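Of 176 repeated values for the medians and counts, 131 stayed within the spread of the arrays, or within 1.5 times for a count. The liver synthesis median turned positive in 1 setting, median centring with brighter probes. Median centring, in place of loess, gave liver medians of -0.008 for synthesis, 0.23 for export and 0.24 for control, uptake and esterification. With it 0 members were lower past 1.2-fold and 0 below 0 on both liver arrays, against 0.226% and 2.75% of all genes. It left 1 spleen member below 0 on both arrays, against 3.06%, and a synthesis organ difference of -0.005. With only probes at or above the median intensity as well, added after seeing the data, these were 0.042, 0.26, 0.31, 0, 0, 0 and 0.003, with all liver genes at 0.30. The shares of all genes there were 0.268% and 0.414% in liver and 0.595% in spleen. Less the median of all genes, also added then, centring gave -0.18 for liver synthesis and -0.17 for the organ difference. After that subtraction 0 of 17 synthesis genes were below 0 on both liver arrays, against 14.6% of all genes. Both arrays had the same value subtracted, so any dye effect that changes with intensity stayed in. The cause was not tested. The deposited log ratios and the authors' value table each gave a spleen export median of 0.08 and an organ difference of -0.33. The mean over probes gave a liver synthesis median of -0.25, 2 members lower past 1.2-fold, against 0.703% of all genes, and an organ difference of -0.25. The spleen export median was -0.12 with probes well above background in both channels and -0.078 without liver-rich members. The organ difference was -0.37 with brighter probes alone, -0.28 without liver-rich members and -0.31 with outlier spots kept, where 1 liver member passed 1.5-fold. Leaving out 1 array gave ranges of -0.28 to -0.21 (liver synthesis), -0.19 to 0.048 (liver control, uptake and esterification), 2 to 2, 10 to 13 and 20 to 25 (liver members past 1.5-fold, lower past 1.2-fold and below 0), -0.017 to 0.017 (spleen synthesis), -0.029 to 0.035 (spleen export), 0 to 1, 1 to 3 and 14 to 18 (the spleen counts), and -0.25 to -0.25 (organ difference). These counts are of 31 measurable members in liver and 32 in spleen. On replicate 1 alone, 4.79% of all liver genes were lower past 1.2-fold and 41.7% below 0, and on replicate 2 alone 12.0% and 51.4%. In spleen the shares were 3.04% and 45.3%, and 5.87% and 54.2%, so the spleen counts below 0 were near those of all genes. The share past 1.5-fold on a single array was not counted. A single array leaves the dye effect in. No paired analysis was possible because the replicate numbers mark the dye orientation and no test was run. With 2 arrays per organ, taken as 1 pool per diet, variation between mice was not measured.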
